A study of Nothobranchius furzeri with 16 samples.

Results

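The 5 genes described here act at the synapse and on the axon: RTN4RL2 (Nfu_g_1_015909), ADGRB1 (Nfu_g_1_010009), one of the annotated copies of SHANK2 (Nfu_g_1_010570), NRG1 (Nfu_g_1_010806) and ADAM23 (Nfu_g_1_017773, the adam23a copy of fish). They are 5 of the 26739 genes of the count table, and each is called by the symbol of its human orthologue. They were chosen with results of the same counts known. RTN4RL2 and ADGRB1 were among the named genes with the smallest p for old against young fish, RTN4RL2 also between the strains, and NRG1 and ADAM23 for old against adult fish. For SHANK2 no comparison that led to its choice could be found again. The measures that chose a gene are therefore given as a description, and a p-value is printed for a member only where the comparison shares no library with the one that chose it, which leaves NRG1 and ADAM23 between the strains.

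The 16 libraries hold brain total RNA of Nothobranchius furzeri, an annual killifish, with 4 libraries in each of 4 groups. The short-lived laboratory strain GRZ was sampled at an age of 5 weeks after hatching (wph, weeks post hatching). The wild-derived strain MZM-0410 was sampled at 5 wph (young), 12 wph (adult) and 39 wph (old). Neither strain carries a transgene or received a treatment. Per the study's methods, fish were killed fasted at the same hour, and the RNA came from lysates prepared for proteomics. These methods do not name GRZ. GRZ was sampled at one age only, so the strains can be compared at the same age only at 5 wph, and ages only within MZM-0410. Levels are CPM values, that is a gene's counts scaled to the total of its library and by TMM factors. They are not per transcript length, so that levels of different genes are not set against each other.

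RTN4RL2, also known as the Nogo receptor homologue NgR2, is anchored to the neuronal surface and binds myelin-associated glycoprotein, one of the myelin molecules that restrain axon growth in mammals. ADGRB1 (BAI1) is an adhesion G protein-coupled receptor that acts at excitatory synapses through Rac signalling and, in phagocytes, recognises dying cells. SHANK2 is a scaffold that ties glutamate receptors of the postsynaptic density to the actin cytoskeleton, NRG1 is a ligand of the ERBB receptor tyrosine kinases with roles in myelination and interneuron development, and ADAM23 is a membrane protein without protease activity that binds the secreted LGI proteins at axons and presynaptic terminals.

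The libraries held 3.93 to 10.6 M counts (M, mega), and 3 of the 4 libraries of young MZM-0410 were the shallowest of all. The member with the fewest reads, RTN4RL2, still had 89 to 177 reads per library in that group, and NRG1 had 93 to 220. All of 22 named neuron marker genes were above 0 in each group. In this bulk RNA, fewer cells of a type and less RNA per cell cannot be told apart.

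RTN4RL2 stood out by its low level in young MZM-0410 fish. In GRZ at 5 wph its level was 80.2, 66.6, 70.5 and 68.7 CPM in the 4 libraries. In MZM-0410 it was 26.0, 21.2, 19.0 and 26.4 CPM at 5 wph, 56.6, 79.3, 62.5 and 62.4 CPM at 12 wph, and 92.8, 89.0, 80.6 and 93.1 CPM at 39 wph. Every young MZM-0410 library lay below every other library, and every old library lay above all others, although the lowest old library (80.6 CPM) was barely above the highest GRZ library (80.2 CPM). The group means were 71.5 ± 6.03 CPM in GRZ and 23.1 ± 3.63, 65.2 ± 9.80 and 88.9 ± 5.80 CPM in MZM-0410 at 5, 12 and 39 wph (SD, n = 4 each). Adult MZM-0410 and young GRZ were next to each other in this order and overlapped. RTN4RL2 was 2.86-fold higher at 12 than at 5 wph (log2 fold change 1.52 ± 0.13, SE), 1.36-fold higher at 39 than at 12 wph (0.44 ± 0.10) and 3.88-fold higher at 39 than at 5 wph (1.95 ± 0.10). In GRZ it was 3.10-fold higher than in MZM-0410 of the same age (1.63 ± 0.11). Of the genes tested between the strains, 99.3% had a lower log2 fold change, which follows in part from the choice of RTN4RL2 in that comparison.

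ADGRB1 followed the same order of groups up to the overlaps. Its level was 632, 589, 591 and 652 CPM in GRZ. In MZM-0410 the libraries held 301, 225, 252 and 306 CPM at 5 wph, 591, 791, 547 and 610.4 CPM at 12 wph, and 789, 716, 718 and 835 CPM at 39 wph. The young MZM-0410 libraries again lay below all others, while the highest adult library (replicate 3) reached into the range of the old ones. Means were 616 ± 31.1 CPM in GRZ and 271 ± 39.4, 635 ± 108 and 764 ± 58.1 CPM in MZM-0410 at 5, 12 and 39 wph (SD, n = 4 each). Young GRZ could not be separated from adult MZM-0410 by level, nor adult from old MZM-0410. The gene was 2.36-fold higher at 12 than at 5 wph (log2 fold change 1.24 ± 0.12, SE), 2.83-fold higher at 39 than at 5 wph (1.5 ± 0.10) and 2.27-fold higher in GRZ than in MZM-0410 at 5 wph (1.18 ± 0.09). Between 39 and 12 wph the log2 fold change was 0.27 ± 0.10 and did not pass the threshold, whereas without adult replicate 3 it was 0.39 and passed.

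**Figure D1:**
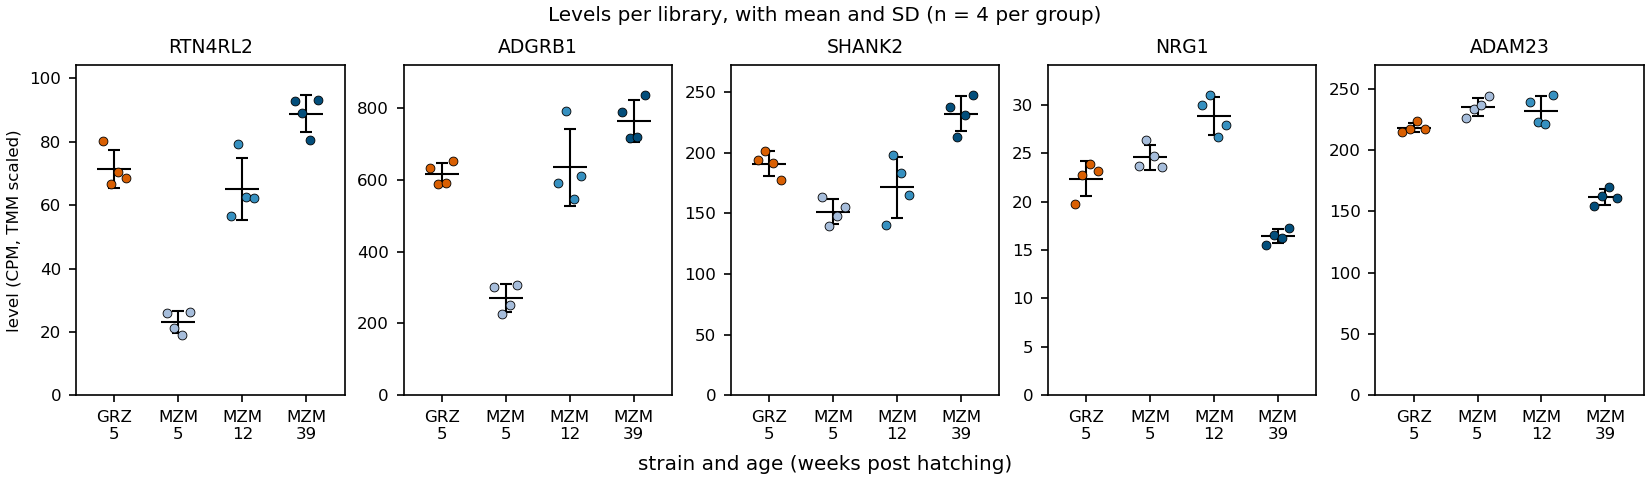
Level of the 5 genes in CPM (vertical axes, starting at 0) in each library, by strain and age on the horizontal axes (GRZ at 5 wph, then MZM-0410 at 5, 12 and 39 wph). Points are libraries, and bars are the mean and SD of 4 libraries. RTN4RL2 and ADGRB1 are lowest in young MZM-0410 (means 23.1 and 271 CPM), SHANK2 is highest and NRG1 and ADAM23 are lowest in old MZM-0410 (means 232, 16.4 and 162 CPM).

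The named paralogues of these receptors did not have this profile in their levels. RTN4RL1, a relative of RTN4RL2 in the Nogo receptor family, averaged 45.8 ± 4.23 CPM in GRZ and 50.3 ± 3.10, 53.0 ± 5.89 and 62.3 ± 2.97 CPM in MZM-0410 at 5, 12 and 39 wph (SD, n = 4 each). It rose by a log2 value of 0.32 ± 0.07 in old against young fish (adjusted p = 0.00772), and its log2 fold change in adult against young fish was 0.09 ± 0.09, which did not pass (adjusted p = 0.614). ADGRB3 ranged over group means of 228 to 241 CPM and passed the threshold in none of the 4 comparisons, under the main settings or any of the 13 alternatives, with log2 fold changes of -0.07 to 0.08. The row named ADGRB2 (Nfu_g_1_012943) carries, like the ADGRB3 row, the fish symbol bai3, which stands for ADGRB3, so which of these receptors it is was not settled. It was lower in GRZ (209 ± 8.51 CPM) than in young MZM-0410 (243 ± 14.9 CPM), the opposite direction to ADGRB1 (log2 fold change -0.22 ± 0.06, adjusted p = 0.0388). That call was lost in 7 of 13 alternatives, among them leaving out GRZ replicate 1, 2 or 3 or MZM-0410 replicate 11, 12 or 14, so that the adjusted p reached 0.119. No row of the table was named RTN4R, the founding Nogo receptor.

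The SHANK2 copy was highest in old fish. It was at 194, 202, 192 and 177 CPM in GRZ. In MZM-0410 it was at 163, 139.7, 148 and 155 CPM at 5 wph, 140.1, 198, 183 and 165 CPM at 12 wph, and 238, 213, 231 and 248 CPM at 39 wph. All old libraries lay above the highest library of any other group (202 CPM in GRZ), and adult fish overlapped with young MZM-0410 as well as with GRZ. Means were 191 ± 10.2 CPM in GRZ and 152 ± 10.1, 172 ± 25.0 and 232 ± 14.4 CPM in MZM-0410 at 5, 12 and 39 wph (SD, n = 4 each). The spread was widest in adults, between replicates 1 and 3. SHANK2 was 1.35-fold higher at 39 than at 12 wph (log2 fold change 0.44 ± 0.10, SE), 1.54-fold higher at 39 than at 5 wph (0.62 ± 0.07) and 1.26-fold higher in GRZ than in MZM-0410 at 5 wph (0.33 ± 0.07), and its log2 fold change between 12 and 5 wph was 0.19 ± 0.10.

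Both other rows named SHANK2, taken here as copies, were also higher in old fish. They were measured in the same libraries as the first copy, so their adjusted p-values are no separate support for it. Neither row has a fish symbol, and no row was named SHANK1 or SHANK3, so which SHANK gene each is was not settled. Nfu_g_1_016200 held 279, 261, 287 and 318 CPM at 39 wph, against 169, 229, 220.2 and 196 CPM at 12 wph, and Nfu_g_1_008152 held 211, 220.3, 228 and 224 CPM at 39 wph, against 168, 163, 188 and 188 CPM at 12 wph. In both copies the old and adult libraries did not overlap. Nfu_g_1_016200 rose by 0.49 ± 0.09 (adjusted p = 0.0134) and Nfu_g_1_008152 by 0.32 ± 0.06 (adjusted p = 0.0126) on the log2 scale, and against young fish they rose by 0.55 ± 0.08 (adjusted p = 0.000745) and 0.27 ± 0.06 (adjusted p = 0.00857). All 4 of these calls held in each of the 13 alternatives. Between the strains neither copy passed the threshold. Nfu_g_1_016200 averaged 232 ± 16.3 CPM in GRZ and 196 ± 22.0 CPM in MZM-0410 at 5 wph (SD, n = 4, log2 fold change 0.24 ± 0.08, adjusted p = 0.0918), and Nfu_g_1_008152 averaged 175 ± 18.1 and 184 ± 13.6 CPM in the same groups (-0.08 ± 0.08, adjusted p = 0.590). The mapping settings of the study allow a single hit per read, so reads common to the 3 SHANK2 rows may have been dropped, which was not tested.

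**Figure D2:**
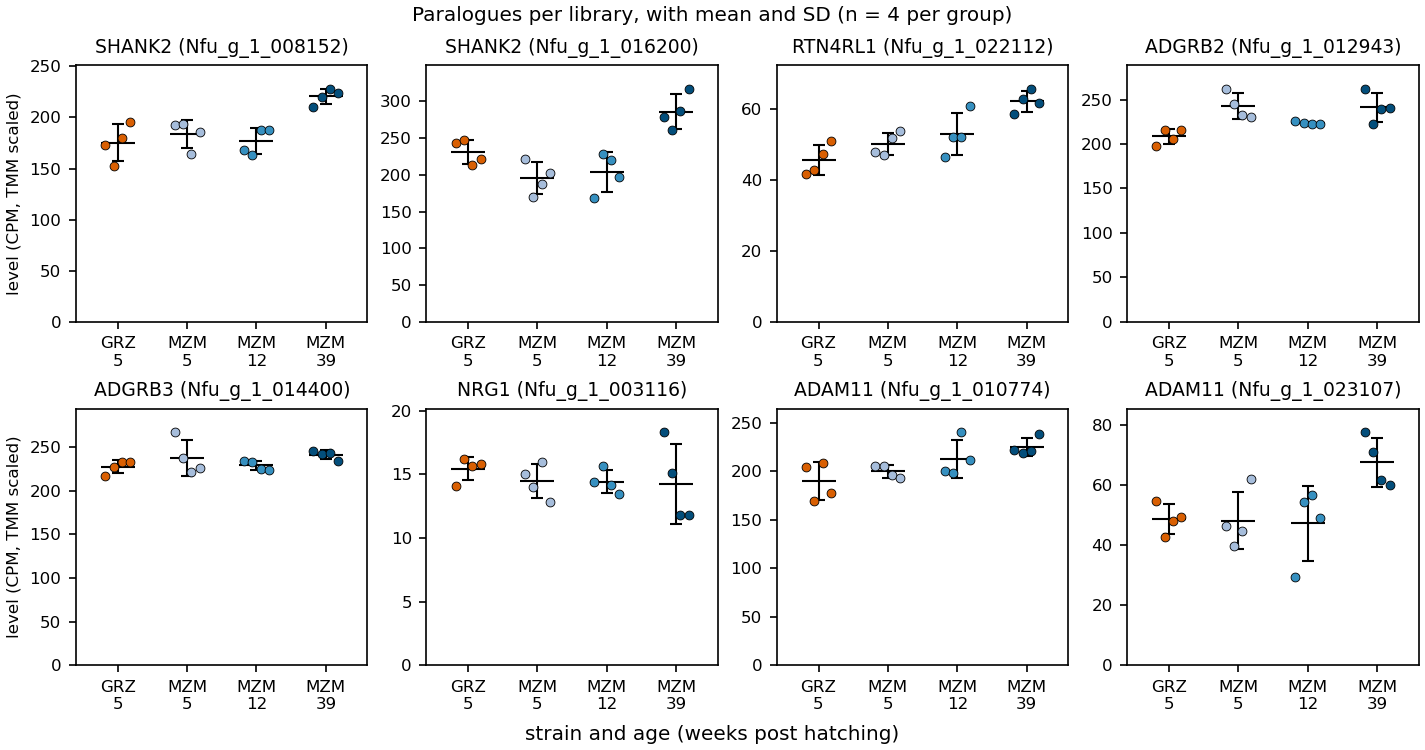
Level of 8 named paralogues in CPM (vertical axes, starting at 0) in each library, by strain and age on the horizontal axes. Points are libraries, and bars are the mean and SD of 4 libraries. Both other SHANK2 copies are highest in old MZM-0410 (means 221 and 286 CPM), and ADGRB3 stays between group means of 228 and 241 CPM.

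NRG1 had its lowest level in old fish and its highest in adults. It was at 19.8, 22.7, 23.8 and 23.1 CPM in GRZ. In MZM-0410 it was at 23.7, 26.3, 24.7 and 23.6 CPM at 5 wph, 30.0, 31.0, 26.7 and 27.9 CPM at 12 wph, and 15.5, 16.5, 16.2 and 17.3 CPM at 39 wph. The 4 old libraries lay below all others and the 4 adult ones above all others, whereas GRZ and young MZM-0410 overlapped. Means were 22.4 ± 1.78 CPM in GRZ and 24.6 ± 1.28, 28.9 ± 1.97 and 16.4 ± 0.733 CPM in MZM-0410 at 5, 12 and 39 wph (SD, n = 4 each). NRG1 was 1.76-fold lower at 39 than at 12 wph (log2 fold change -0.81 ± 0.09, SE) and 1.5-fold lower at 39 than at 5 wph (-0.59 ± 0.09). Between 12 and 5 wph the log2 fold change was 0.23 ± 0.09, which did not pass the threshold although the libraries did not overlap. GRZ and MZM-0410 at 5 wph differed by -0.15 ± 0.10, with a 95% interval of -0.36 to 0.06, which did not pass (adjusted p = 0.373, edgeR quasi-likelihood test with Benjamini-Hochberg adjustment). The other row named NRG1 (Nfu_g_1_003116) carries the fish symbol of an NRG2 copy. It had group means of 14.3 to 15.4 CPM and log2 fold changes of -0.02 to 0.09, and passed in none of the 4 comparisons or their alternatives.

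ADAM23 differed from NRG1 in the earlier ages, where it was level. Its libraries held 215, 217, 224 and 217 CPM in GRZ. In MZM-0410 they held 226, 234, 237 and 244 CPM at 5 wph, 239, 223, 221 and 245 CPM at 12 wph, and 154, 163, 169.7 and 161 CPM at 39 wph. The old libraries lay apart from the other 12, the highest of them at 169.7 CPM and the lowest of the others at 215 CPM. Means were 218 ± 3.79 CPM in GRZ and 235 ± 7.35, 232 ± 11.7 and 162 ± 6.44 CPM in MZM-0410 at 5, 12 and 39 wph (SD, n = 4 each). ADAM23 was 1.43-fold lower at 39 than at 12 wph (log2 fold change -0.52 ± 0.06, SE) and 1.45-fold lower at 39 than at 5 wph (-0.54 ± 0.05), and its log2 fold change between 12 and 5 wph was -0.01 ± 0.05. GRZ libraries were all below those of young MZM-0410, by a log2 value of -0.11 ± 0.05 with a 95% interval of -0.22 to -0.01, which did not pass after adjustment (adjusted p = 0.169, edgeR quasi-likelihood test). Of its relatives, the ADAM11 copy Nfu_g_1_023107 rose in old against young fish, to 67.6 ± 8.24 against 48.2 ± 9.63 CPM (log2 fold change 0.50 ± 0.13, adjusted p = 0.0155), a call that was lost without young replicate 14 (adjusted p = 0.0511). No other row was named ADAM23, and none was named ADAM22.

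Markers of several cell types differed between the same groups as the members, and their part in these results was not tested. Of named genes other than the 5, 5.88% rose and 11.6% fell past the threshold at 39 against 12 wph. At 12 against 5 wph 12.7% rose and 6.49% fell, and at 39 against 5 wph 19.8% rose and 22.4% fell. Between the strains 8.82% were higher and 5.90% lower in GRZ. Nothing is read from counts of 1 or 2 markers of a list. At 39 against 12 wph, 13 of 21 tested neuron markers fell (9 to 14 with single libraries left out), with a median log2 fold change of -0.35. Their summed level ranged over 4569 to 5009.8 CPM at 39 wph, against 5611 to 5913 CPM at 12 wph. NRG1 (-0.81) and ADAM23 (-0.52) were lower by more than that median, and SHANK2 (0.44), RTN4RL2 (0.44) and ADGRB1 (0.27, not past the threshold) were higher. The members were chosen with results of these libraries known, NRG1 and ADAM23 by this comparison, so nothing is read from these differences. Of 8 myelin and oligodendrocyte markers 6 fell (4 to 6 with single libraries left out), with summed levels of 1552 to 2061 CPM at 39 wph, against 2468 to 4159 CPM at 12 wph. Of 8 markers of astrocytes and radial glia 4 fell (2 without old replicate 6), with sums of 2378 to 2789 CPM at 39 wph, against 3023 to 4116 CPM at 12 wph. Of 5 microglia and macrophage markers 1 rose (2 without old replicate 10), with sums of 235 to 285 CPM at 39 wph, against 171 to 209 CPM at 12 wph. Both skeletal muscle markers fell (1 without old replicate 10, 0 without old replicate 6), with overlapping sums of 2.31 to 5.68 CPM at 39 wph, against 4.95 to 102 CPM at 12 wph. None of the markers named so far was at 0 in any group. Of 13 markers of dividing progenitors 5 fell (median -0.51), with sums of 209 to 236 CPM at 39 wph, against 252 to 347 CPM at 12 wph, and 3 fell when any single library other than old replicate 8 was left out. Of 5 endothelial markers 1 fell (0 without old replicate 6, 2 without adult replicate 4 or old replicate 8), with sums of 251 to 289 CPM at 39 wph, against 305 to 359 CPM at 12 wph. Of 2 red blood cell markers tested 1 fell, which was lost without adult replicate 1, 4 or 5 or old replicate 6 or 10, and the sums over 8 named rows were 22.2 to 87.9 CPM at 39 wph, against 112 to 227 CPM at 12 wph. Between GRZ and young MZM-0410 the neuron sums overlapped, at 5559.8 to 5757 CPM in GRZ, against 5642 to 5831 CPM in MZM-0410, as did those of myelin. Endothelial sums were 296 to 352 CPM in GRZ, against 210.5 to 262 CPM in young MZM-0410, where 1 of 5 markers passed (2 without GRZ replicate 1, 3 or 4). At 12 against 5 wph 2 of 5 endothelial markers rose, and of the MZM-0410 groups the sums were highest at 12 wph (305 to 359 CPM). Of the progenitor markers 7 fell at 12 against 5 wph, with sums of 252 to 347 CPM at 12 wph, against 449 to 496 CPM at 5 wph, and the sums of GRZ (430.0 to 512 CPM) overlapped with those of young MZM-0410.

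**Figure D3:**
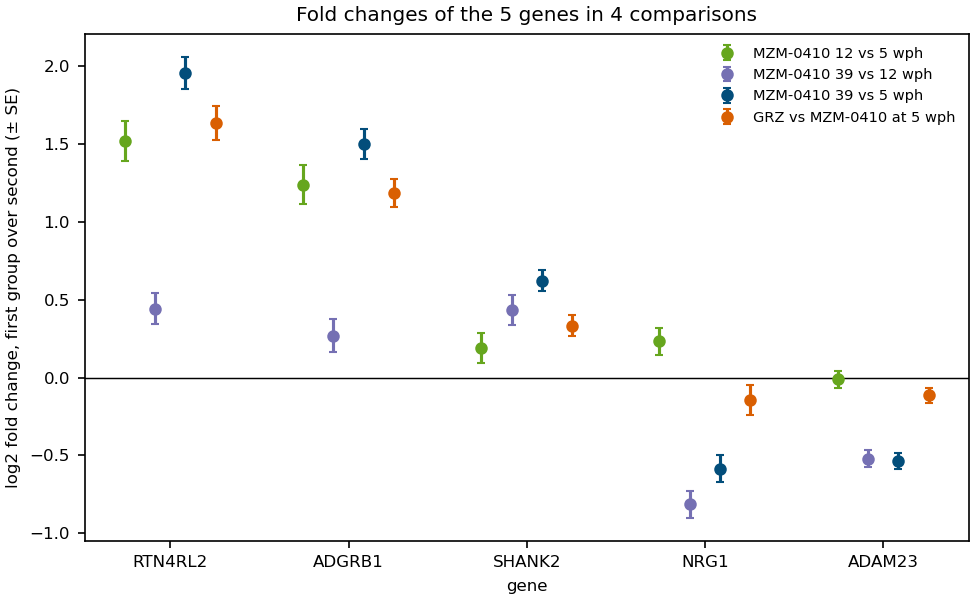
Log2 fold change of each gene, first group over second, with its SE (vertical axis), for the 5 genes on the horizontal axis and the 4 comparisons by colour. RTN4RL2 and ADGRB1 lie above 1 in every comparison with young MZM-0410, and NRG1 and ADAM23 lie at -0.52 or below in both comparisons of old fish.

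Counted over the comparisons, 2 of the 5 genes passed the threshold at 12 against 5 wph, both higher (RTN4RL2 and ADGRB1), where 6.60% of all 17366 genes tested passed (4.46% higher and 2.14% lower). At 39 against 12 wph 2 were higher (RTN4RL2 and SHANK2) and 2 lower (NRG1 and ADAM23), where 9.64% of genes passed (3.89% higher and 5.75% lower). At 39 against 5 wph 3 were higher and 2 lower, where 24.9% of genes passed (12.3% higher and 12.6% lower), and between the strains 3 were higher, where 10.1% passed (5.44% higher and 4.69% lower). Groups did not overlap for 3, 4, 5 and 4 of the genes in these comparisons in turn, against 14.5%, 17.6%, 26.7% and 16.7% of all genes tested. As the genes were chosen on such differences, nothing is read from these counts. Of the 4 comparisons 3 share the young MZM-0410 libraries, and a low value in that group enters all of them. At 39 against 12 wph the calls of RTN4RL2 and SHANK2 were lost without adult replicate 5, old replicate 6 or old replicate 10, which left 2 of the 5 genes past the threshold.

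The other named genes of each pathway were counted from lists of partners, with the members left out and their named paralogues kept. They are read against named genes, which passed more often than all genes tested: 12.7% of named genes were higher and 6.49% lower at 12 against 5 wph, 5.88% and 11.6% at 39 against 12 wph, 19.8% and 22.4% at 39 against 5 wph, and 8.82% and 5.90% in GRZ against MZM-0410. Of the 24 postsynaptic scaffold genes tested, 7 rose and 1 fell at 39 against 12 wph (median log2 fold change 0.12) and 12 rose and 3 fell at 39 against 5 wph (median 0.20), while 1 rose at 12 against 5 wph and 1 was higher and 1 lower in GRZ than in young MZM-0410. Both other SHANK2 copies, described above, are among the 24 and among those that rose in both comparisons of old fish. The single rise at 12 against 5 wph was lost without adult replicate 1, 3 or 4 or young replicate 11, 12 or 14, and DESeq2 called 3. The median of the other named genes was -0.04 at 39 against 12 wph and -0.03 at 39 against 5 wph. In old against young fish GRM5, a metabotropic glutamate receptor (Nfu_g_1_022168), rose to 267 ± 9.73 CPM, against 179 ± 28.6 CPM (SD, n = 4, log2 fold change 0.59 ± 0.10, adjusted p = 0.00109), and GRIN2A, an NMDA receptor subunit (Nfu_g_1_007055), rose by 0.47 ± 0.07 (adjusted p = 0.000902). The scaffold DLG1 (Nfu_g_1_013038) rose by 0.35 ± 0.05 (adjusted p = 0.000486). The 3 that fell, named after their values were seen, were a row named GRIN2C whose fish symbol is that of a GRIN2D copy, another NMDA receptor subunit (-0.25, adjusted p = 0.00164), the actin regulator ABI1 (-0.31, adjusted p = 0.00989) and the scaffold HOMER3 (-0.73, adjusted p = 0.0259, lost in 6 of 13 alternatives). Between the strains HOMER1 was higher in GRZ (0.36 ± 0.09, adjusted p = 0.0205, lost without GRZ replicate 2 or young MZM-0410 replicate 12 or 14) and a row named DLGAP1 (Nfu_g_1_021350), whose fish symbol is that of a DLGAP4 copy, was lower. Proteins of the DLGAP family bind SHANK proteins. It was at 58.9 ± 6.36 CPM in GRZ, against 85.7 ± 6.95 CPM in young MZM-0410 (-0.55 ± 0.09, adjusted p = 0.00238). Without old replicate 6, 2 rose at 39 against 12 wph, and the single gene that fell there, GRIN2C, was lost in 7 of 13 alternatives.

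In the list of ADAM22 and ADAM23 with the LGI proteins and axonal potassium channels, some genes were lower in old fish. At 39 against 12 wph 5 of 14 fell (median log2 fold change -0.16), where 11.6% of named genes were lower. At 39 against 5 wph 4 fell and 2, both copies of ADAM11, rose (median -0.17), where 22.4% of named genes were lower and 19.8% higher. No direction of the list is read from these counts. At 12 against 5 wph 1 rose (0 without young replicate 11, 12 or 14, and 2 without adult replicate 4). Between the strains 1 was lower in GRZ, which was lost without GRZ replicate 1 or 2 or any single library of young MZM-0410, and 2 were lower without GRZ replicate 3. KCNA2, a potassium channel of the axon beside the node, fell to 48.1 ± 3.64 CPM at 39 wph, against 66.4 ± 4.10 CPM at 12 wph (SD, n = 4, log2 fold change -0.46 ± 0.08, adjusted p = 0.00860), and a row named KCNAB1 (Nfu_g_1_005212), an auxiliary subunit of such channels with the fish symbol kcnab3, fell by 0.35 ± 0.07 on the log2 scale (adjusted p = 0.0140). LGI2 (Nfu_g_1_009621), a secreted ligand of the ADAM22 family, fell by 0.64 ± 0.14 (adjusted p = 0.0198), a call that was lost without old replicate 6 (adjusted p = 0.0588). The number that fell at 39 against 12 wph was 3 without adult replicate 1 or 3 and 2 without old replicate 6, and the number that rose against young fish was 0 without young replicate 14 and 1 without young replicate 15 or old replicate 6 or 10.

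Some partners of the other members passed the threshold. No direction of these lists is read from the counts that follow, which are to be set beside the shares of named genes given above. In the Nogo receptor list 1 of 10 genes rose at 12 against 5 wph and 1 at 39 against 12 wph, 3 rose and 1 fell at 39 against 5 wph, and none passed between the strains in edgeR or in DESeq2, where 3 had an unadjusted edgeR p under 0.05. The rise at 12 against 5 wph was lost when any single library other than adult replicate 5 was left out. Without adult replicate 5, 2 rose at 39 against 12 wph, where 1 fell without adult replicate 4 or old replicate 8. The fall at 39 against 5 wph was lost without old replicate 6, 9 or 10 or young replicate 12 or 15, and 2 fell without young replicate 11. ROCK2 (Nfu_g_1_017524), a kinase through which Nogo receptors act on the actin cytoskeleton, rose to 194 ± 16.5 CPM in old fish, against 121 ± 16.4 CPM in young fish (SD, n = 4, log2 fold change 0.69 ± 0.10, adjusted p = 0.000486).

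Of the partners of ADGRB1, 3 of 11 rose at 12 against 5 wph, and of 12 tested 1 rose and 2 fell at 39 against 12 wph, 2 rose and 1 fell at 39 against 5 wph, and 1 was higher and 1, the row named ADGRB2, lower between the strains. Leaving out single libraries other than old replicates 6 and 8 left 1 that rose at 39 against 5 wph, and without GRZ replicate 1 the number higher in GRZ was 2. BAIAP2, which links Rac to actin, had its highest level in adults: it rose to 92.9 ± 5.72 CPM at 12 wph, against 48.8 ± 4.06 CPM at 5 wph (0.93 ± 0.08, adjusted p = 4.56e-05), and fell by 0.61 ± 0.11 at 39 against 12 wph (adjusted p = 0.0111). The GTPase RAC1 (Nfu_g_1_023229) had the same order of young groups as ADGRB1. It was higher in GRZ, at 11.5 ± 2.12 CPM, against 6.45 ± 1.06 CPM in young MZM-0410 (0.83 ± 0.18, adjusted p = 0.0129), and it rose in adults, to 11.8 ± 1.48 CPM (0.88 ± 0.16, adjusted p = 0.00615). TIAM1 (Nfu_g_1_022187), an activator of Rac, rose by 0.69 ± 0.10 between old and young fish (adjusted p = 0.000607), and C1QL4, of a family of secreted ligands of ADGRB3, fell by 1.23 ± 0.23 (adjusted p = 0.00246). A common change of Rac signalling was not tested.

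Of the 7 neuregulin genes 1 rose and 1 fell at 12 against 5 wph. This rise was lost without young replicate 12, 14 or 15, and this fall without adult replicate 3, 4 or 5 or young replicate 11, 12 or 14. At 39 against 5 wph 1 rose and 2 fell, where 1 fell without old replicate 9 or 10 or young replicate 12, 14 or 15, and 2 rose without old replicate 9. For NRG1, the receptor ERBB4 was at 46.7 ± 15.6 CPM in old fish, against 87.2 ± 10.9 CPM in young fish (-0.90 ± 0.18, adjusted p = 0.00395), and EGFR rose by 0.55 ± 0.13 (adjusted p = 0.0103). At 39 against 12 wph, the comparison with the largest difference of NRG1, none of the 7 passed in edgeR or DESeq2, and none had an unadjusted p under 0.05. Between the strains none passed in edgeR or DESeq2 either, and 2 had an unadjusted edgeR p under 0.05.

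**Figure D4:**
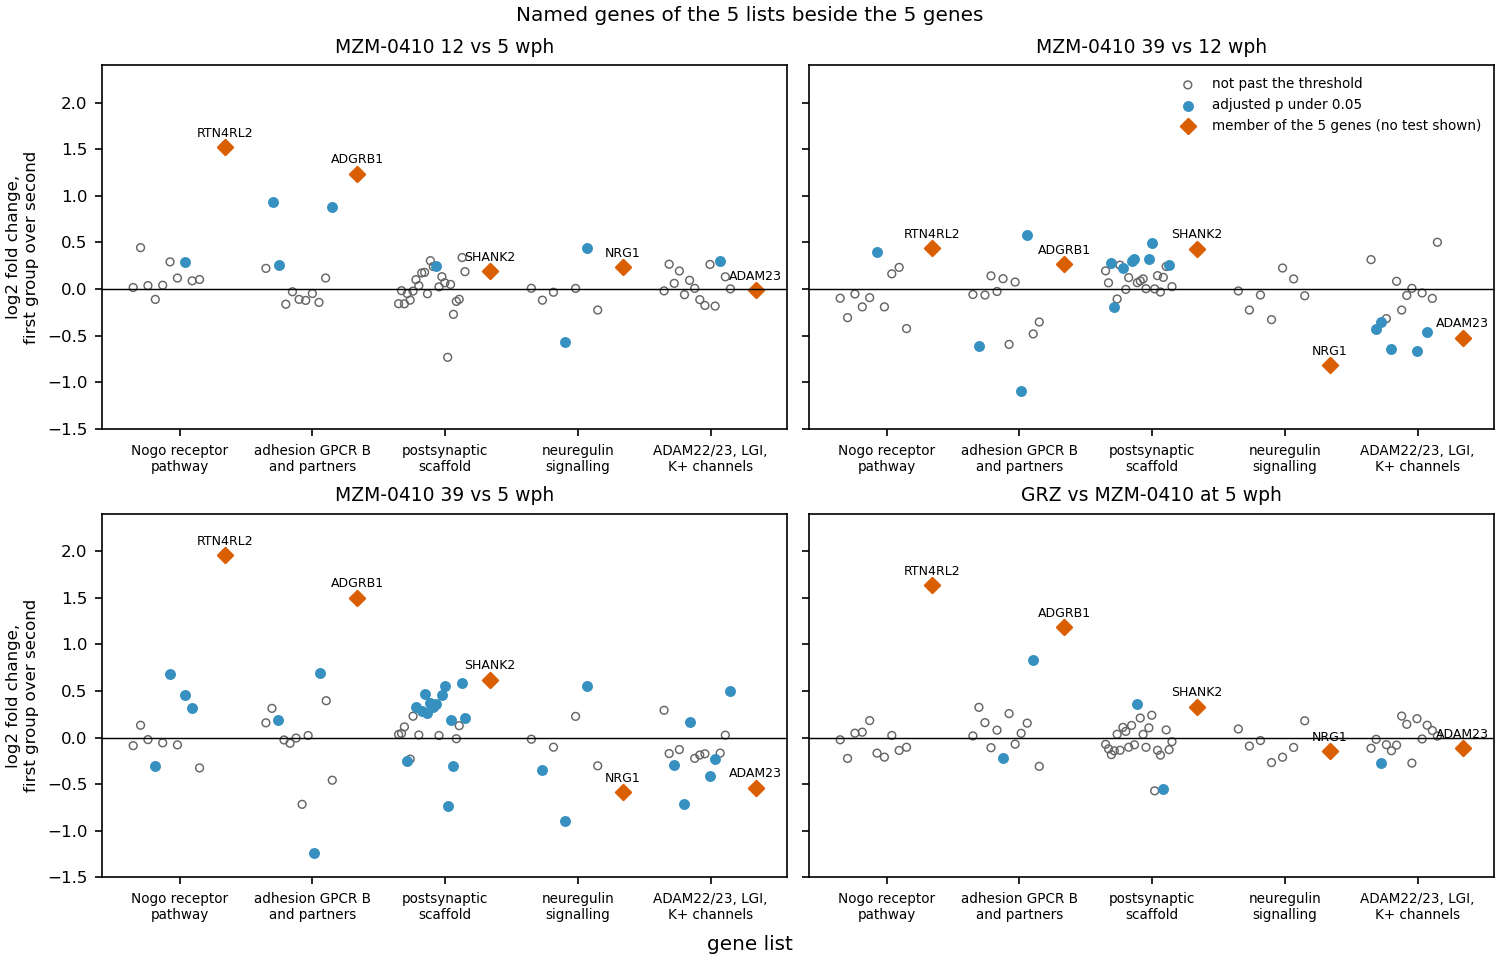
Log2 fold change, first group over second (vertical axes), of the named genes of 5 lists (horizontal axes) in 4 comparisons (panels). Filled circles passed an adjusted p of 0.05, open circles did not, and diamonds are the 5 genes beside their own list. In old against young fish, 12 of 24 scaffold genes are higher and passed, among them both other SHANK2 copies. RTN4RL2 and ADGRB1, which were chosen with results of the same counts known, lie above all partners in every comparison with young MZM-0410.

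Over the 16 libraries RTN4RL2 and ADGRB1 were the genes most like each other by Pearson's r, though not by ranks. Pearson's r of their log2 CPM was 0.985, and no other gene kept by the filter on low counts, named or not, had a higher r with either. These points share libraries and fall into separate groups, with young MZM-0410 apart from the rest, so the value describes the group pattern. Both genes were also chosen for their difference between old and young fish. By ranks the value was lower (Spearman's rho 0.909, with 11 genes more like RTN4RL2 than ADGRB1 was). Among these was SHANK2, with a rho of 0.926 to RTN4RL2 and a Pearson's r of 0.803. Next in likeness to both were FOSB, a subunit of AP-1 (r = 0.981 and 0.984), and KLF9, a glucocorticoid-induced transcription factor (0.953 and 0.973). FOSB was at 71.2 ± 5.99 CPM in GRZ and 13.6 ± 3.89, 70.6 ± 14.9 and 80.3 ± 11.1 CPM in MZM-0410 at 5, 12 and 39 wph (SD, n = 4 each). CHN1 (0.947), which carries the fish symbol chn2, was also among the 5 named genes most like RTN4RL2, and MAGIX (0.965) and GADD45B (0.960) were among those most like ADGRB1.

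The gene most like the SHANK2 copy was another copy, Nfu_g_1_016200 (r = 0.965), followed by INF2 (0.932), HDAC9 (0.932), EGR2 (0.928) and ROBO3 (0.922). For ADAM23 they were GFRA2 (0.954), GPC1 (0.946), PPP1R12C (0.943), HIBADH (0.938) and GLRA1 (0.928), and for NRG1 PPP1R12C (0.916), SLC12A5 (0.913), SMOX (0.912), BCAR3 (0.910) and NAPB (0.905). NRG1 and ADAM23 had an r of 0.894 with each other, and the old libraries were the lowest in both. SHANK2 ran against them, with r of -0.865 to ADAM23 and -0.752 to NRG1. With ranks in place of values, 0, 1, 4, 3 and 0 of the 5 named genes were kept for RTN4RL2, ADGRB1, SHANK2, NRG1 and ADAM23 in turn.

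**Figure D5:**
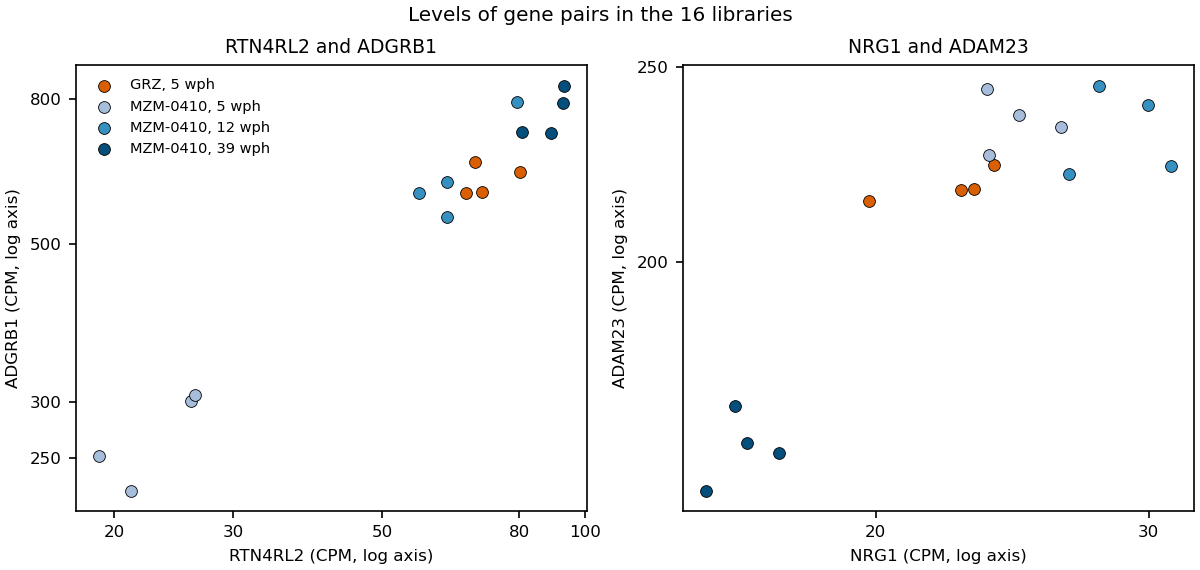
Level of 1 gene against another in each of the 16 libraries, in CPM on log axes, coloured by strain and age: RTN4RL2 and ADGRB1 on the left, NRG1 and ADAM23 on the right. The 4 young MZM-0410 libraries lie apart at the lower left for the first pair (19.0 to 26.4 CPM of RTN4RL2), and the 4 old libraries for the second (15.5 to 17.3 CPM of NRG1).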

How the data were processed

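The 16 libraries are stranded total RNA after depletion of ribosomal RNA. The authors deposited raw counts per gene, 1 column per library without pooling, made, per the methods and the submitters' processing notes, with bcl2fastq 1.8.4, TopHat2 2.1.0 (genome Nfu_20150522) and featureCounts 1.5.0 (annotation genebuild_v1.150922). The strand was not used in counting. Antisense reads can therefore enter a gene's count, and how reads of overlapping genes were counted was not checked. Per the methods, mapping was limited to transcripts and to 1 hit per read (TopHat2 -T -x 1). Reads common to copies of a gene may therefore have been dropped. The study states 5 animals per age group, lists males for MZM-0410, and 4 libraries per group were analysed here. The labels give the libraries of a group as separate samples and do not name the fish, so p-values measure the spread between these samples.

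The gene identifiers carry no symbol in the table. Symbols of human orthologues came from the identifier pairs of the supplementary tables, which are held in part and are ranked by change, and reached 5369 genes (20.1%). Of 108 symbols of the 5 pathway lists 52 had a named gene. Rows whose fish symbol named an unrelated gene were left out. A row whose fish symbol named another member of the same family was kept under its human symbol.

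For each comparison only the 8 libraries concerned were fitted, with filterByExpr, TMM and the two-sided quasi-likelihood test of edgeR 4.0.16 (R 4.3.3), with Benjamini-Hochberg adjustment over all genes tested. Past the threshold means an adjusted p under 0.05, and all unspecified adjusted p-values are from this test. The SE is the log2 fold change divided by the square root of F. Alternatives, 13 per comparison, were DESeq2 1.42.0 (the tool of the study), RLE factors, no filter on low counts, 1 fit over 16 libraries, thinning to the smallest library and leaving out each of 8 libraries. The procedure was tested on simulated counts. Likeness used log2 CPM with a prior count of 2.

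The members, lists and rules were chosen with earlier results of these data known. Named are the 5 members, their named paralogues, up to 4 genes past the threshold with the smallest p per list and comparison, of which a selection is reported, and the 5 named genes most like each member, of which 1 is not reported here. The symbols ROCK2, TIAM1, GRM5, GRIN2A, LGI2, DLG1 and KCNAB1 are also held by other rows of the lists, whose values are not described here. No sequence or coordinate is given, as no genome of this build was used here.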

Additional observations from a re-analysis of the deposited data

Results flagged for a closer look

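In 1 of 52 groups of 4 libraries tested over the 5 genes and their 8 named paralogues, a library stood far from the others. The ADAM11 copy Nfu_g_1_010774 was at 238 CPM in old MZM-0410 replicate 10, against 219 to 222 CPM in the other old libraries, a gap of 0.866 of the group's range, past Dixon's 95% critical value for 4 samples. Chance alone marks about 1 in 20 such groups. In old against young fish this copy had a log2 fold change of 0.17 ± 0.05 (adjusted p = 0.0288, edgeR), a call lost in 6 of 13 alternatives, among them leaving out that library.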

How the results depend on the processing

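No paired analysis was possible because the groups compared share no replicate number. Over the 13 alternatives of each comparison, log2 fold changes of the 5 genes kept direction and side of the threshold in 250 of 260 cases. The genes were chosen with results of the same libraries known, so this is partly built in and is not read as support. At 39 against 12 wph, 2 to 5 of the 5 genes passed when single libraries were left out, and in the other comparisons the number was unchanged (2 at 12 against 5 wph, 5 at 39 against 5 wph, 3 between the strains). Counts of list genes also changed. With single libraries left out, 2 to 6 of the list genes rose and 0 to 1 fell at 12 against 5 wph (7 and 1 with all libraries), 4 to 10 rose and 4 to 8 fell at 39 against 12 wph (9 and 8), 16 to 20 rose and 7 to 12 fell at 39 against 5 wph (20 and 11), and 1 to 3 rose and 1 to 3 fell in GRZ against MZM-0410 (2 and 3). After thinning of all libraries to the depth of the smallest, 1 fell between the strains. Of log2 fold changes of list genes, 93 of 897 cases no longer passed and 2 newly passed. Mean levels without TMM scaling stayed within 1 SD in 20 of 20 cases.

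Log2 fold changes near 0, none past the threshold, changed sign. With single libraries left out they ranged at 12 against 5 wph over -0.036 to 0.016 for ADAM23, -0.083 to 0.011 for ADGRB3, -0.038 to 0.056 for the second NRG1 row and -0.092 to 0.16 for the ADAM11 copy Nfu_g_1_023107. The range was -0.16 to 0.061 for that NRG1 row at 39 against 12 wph. At 39 against 5 wph it was -0.16 to 0.067 for that row, -0.047 to 0.030 for ADGRB2 and -0.015 to 0.077 for ADGRB3, and between the strains it was -0.081 to 0.16 for that ADAM11 copy. This copy at 12 against 5 wph was at -0.0091 with DESeq2, at -0.0024 with 1 fit over 16 libraries and at -0.053 with thinned counts, and at -0.0023 with thinned counts between the strains. The second NRG1 row at 39 against 5 wph was at 0.0083 with thinned counts. The cause of these changes was not tested. The 4 samples per group limit the precision of every comparison, and the shallow young MZM-0410 libraries that of the 3 comparisons that hold them.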
